A study of Mus musculus with 18 samples.

Results

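The complement and coagulation systems were described here through 38 liver genes, 17 of complement and 21 of coagulation with its inhibitors and fibrinolysis. A gene was taken where a probe set of the array carried its symbol and no other, and the brightest such probe set stood for it. By that rule 36 of the 38 genes were found among 18193 genes on the array, 16 of complement and 20 of coagulation, and all 36 passed the filter on dim genes and were among the 12885 genes tested. C3, the central complement component, and Cpb2, a carboxypeptidase that slows fibrinolysis, had no probe set under their own symbol alone and were not analysed here. Serping1, which inhibits proteases of both systems, was counted with complement.

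Livers came from male C57BL/6J mice that were 5 weeks old at the start and ate AIN93G diet for 20 weeks, either plain (control) or with 0.05% or 1% quercetin, a flavonol found in many plant foods. The study kept 12 mice per diet, 3 to a cage, and 6 mice per diet were measured here, with the RNA of 1 mouse on each Affymetrix array. The cage of each mouse was not among the labels used here, so cage and mouse could not be told apart. No knockout, transgene or second agent was named for any group.

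Most complement and clotting proteins of plasma are made by hepatocytes. In complement, recognition proteins and their proteases cut C4, C2 and C3 in turn, and the terminal components C5 to C9 then assemble into a membrane pore. In coagulation, a chain of proteases ends with thrombin, which turns fibrinogen into fibrin, while antithrombin, heparin cofactor and the protein C system restrain it and plasmin dissolves the clot. Many of these genes also belong to the hepatic acute phase response, in which interleukin-6 and interleukin-1 raise some plasma proteins and lower others.

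Levels are log2 of the deposited intensity plus 16, with the median of the tested genes made equal on all arrays. Means carry the SD over the 6 mice of a diet (n = 6), and differences are log2 ± SE from limma fitted across all tested genes, with Benjamini-Hochberg adjusted p-values. Levels of different genes come from different probe sets and are not set against each other. The members were bright, with intensities from 254 to 14914, and Fgb reached 94.9% of the highest intensity on its array, a range in which arrays may compress differences. The summed intensity of 8 hepatocyte markers lay between 66339 and 81832 on every array, and that of 6 neutrophil markers between 127 and 1244. Since the samples were whole liver, fewer cells of a type and less RNA per cell cannot be told apart. Control replicate 3 and 1% replicate 4 stood apart from the other mice of their diets in several members. For some of the differences printed with an adjusted p, the value with 1 mouse left out is given as well. Differences given only once may also move when a mouse is left out.

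**Figure D1:**
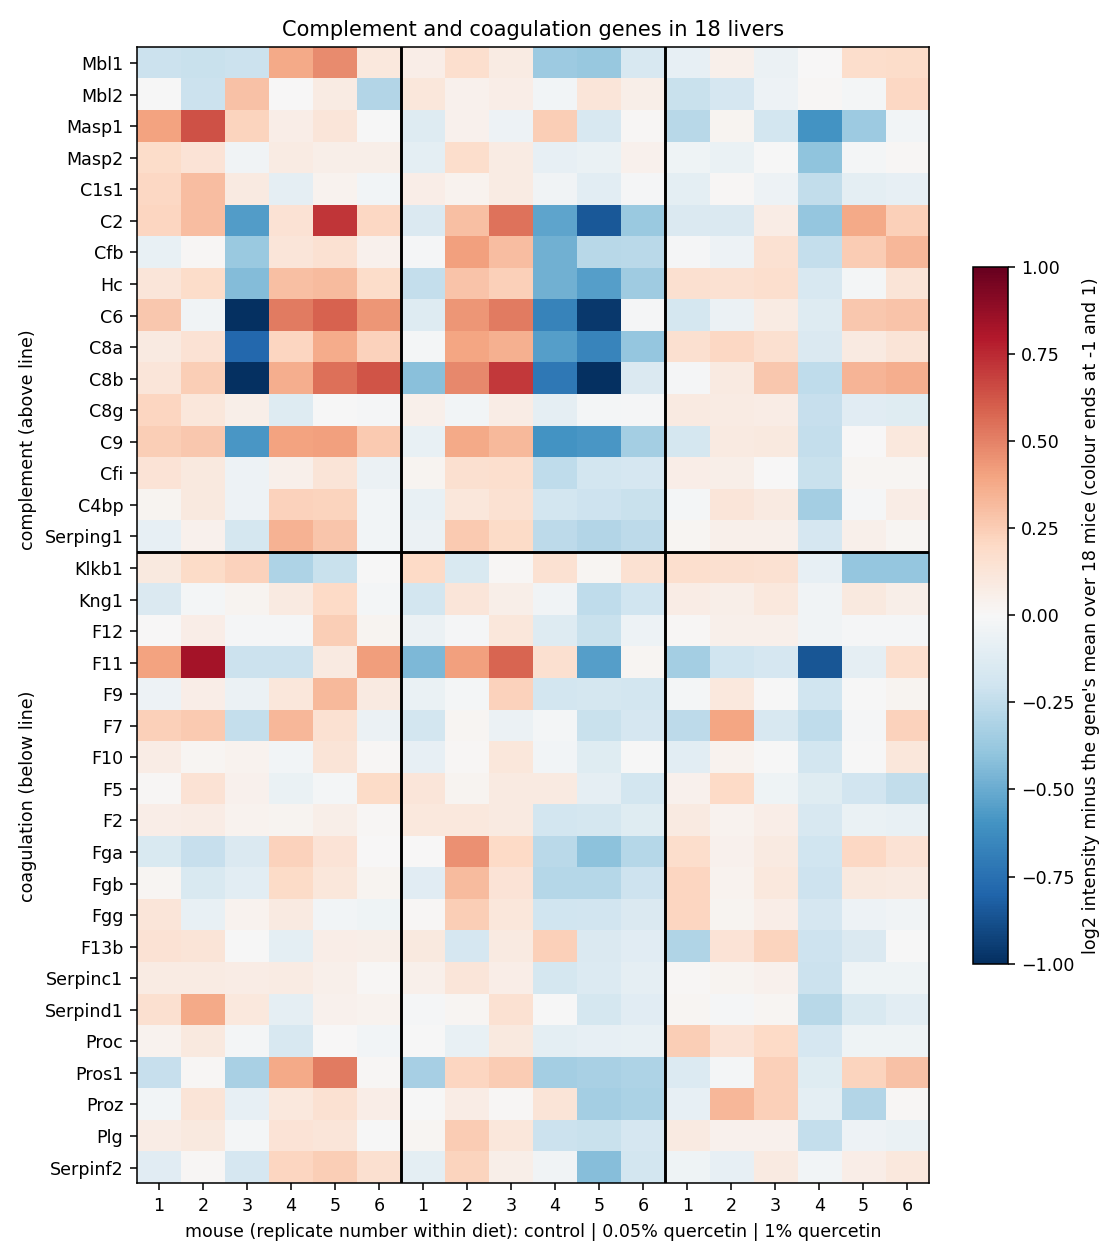
Heat map of the 36 genes (rows, complement above the horizontal line and coagulation below) in 18 mice (columns, grouped by diet), coloured by log2 intensity minus the gene's mean over all mice. Columns for control replicate 3 and 0.05% replicates 4 and 5 are blue across the terminal complement genes, while C8g varies little.

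No member passed an adjusted p of 0.05 in any comparison of diets. The background was as sparse: 0.00776% of all tested genes passed for 1% against control (1 gene, which was not a member), 0% for 0.05% against control and 0% for 1% against 0.05%. At an unadjusted p under 0.05, 4 members were lower and 0 higher in 1% against control, where 4.66% of all genes were lower at that level. The same counts were 0 lower and 0 higher in 0.05% against control, with 2.44% of all genes lower, and 0 and 0 in 1% against 0.05%, with 3.86% lower. Every member's values overlapped between the diets in all 3 comparisons. The share of all tested genes that overlapped was not counted, so the overlap describes the members only.

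**Figure D2:**
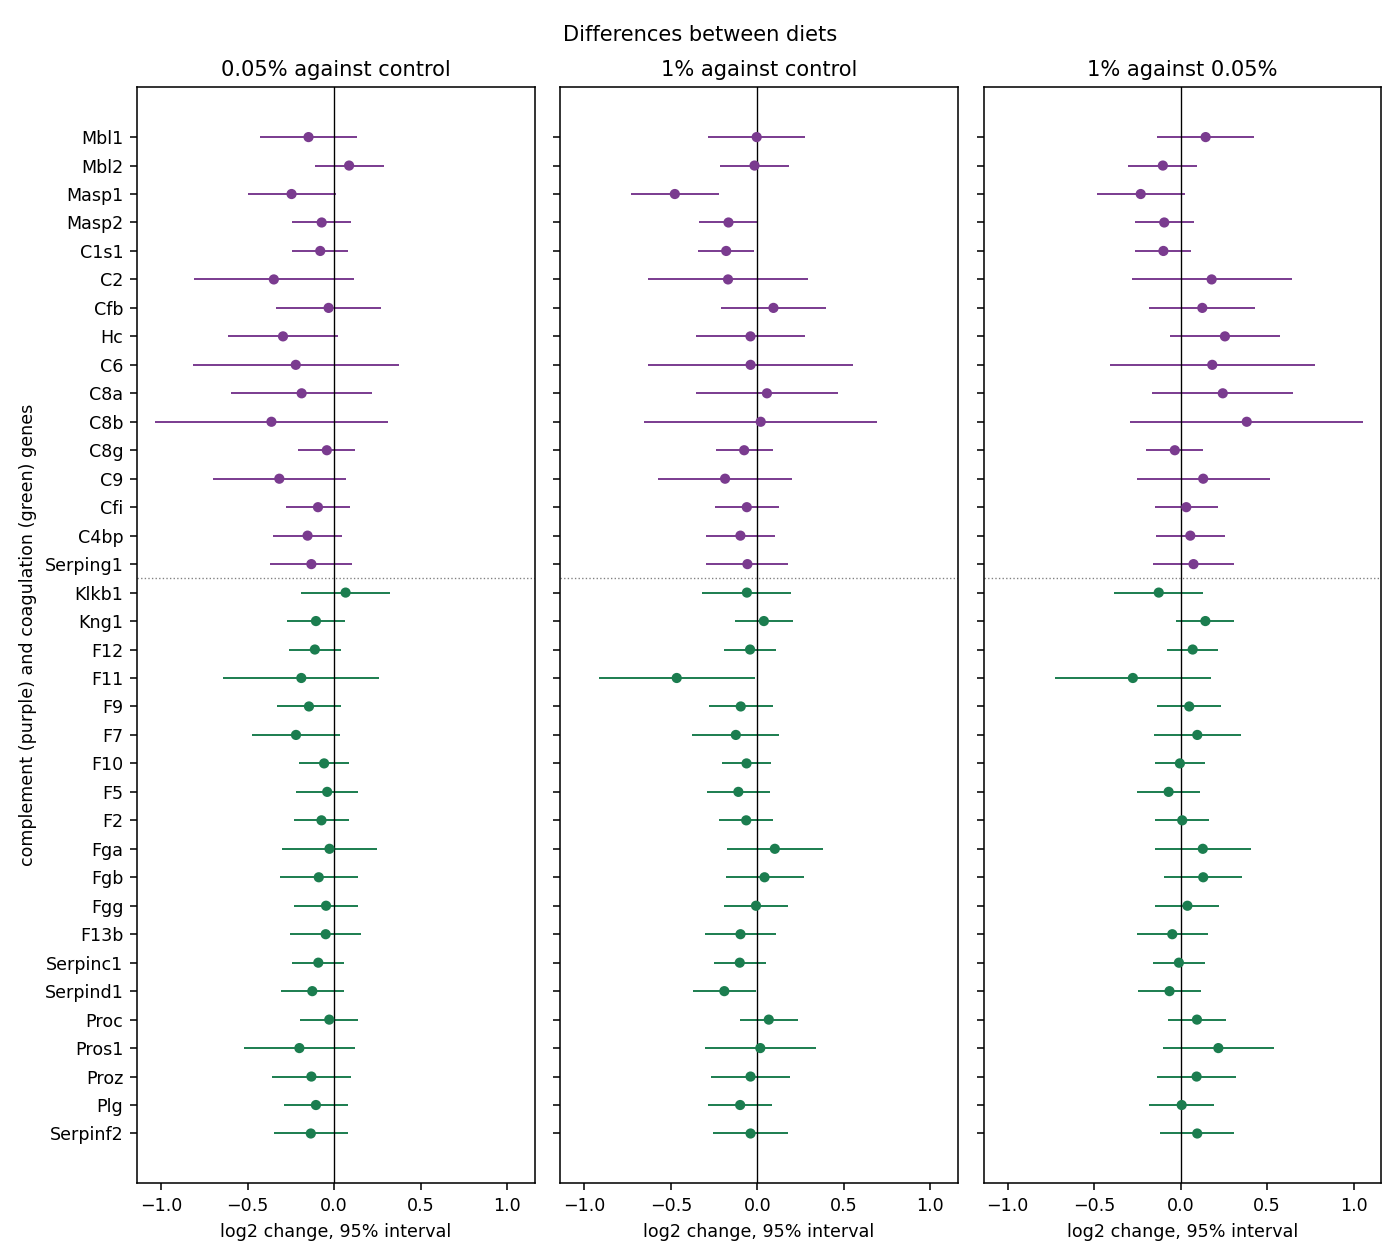
Differences between diets for each of the 36 genes, as log2 change (points) with the 95% interval of limma's fit (bars), complement in purple and coagulation in green. Most intervals include 0; in 1% against control those of Masp1, C1s1, F11 and Serpind1 lie below it.

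At 1% quercetin the complement differences from control with the smallest p were those of the proteases Masp1, C1s1 and Masp2, and the coagulation differences those of Serpind1 and F11. In this comparison 13 of 16 complement genes were lower, with a median log2 difference of -0.060, and 15 of 20 coagulation genes were lower, with a median of -0.062. Among all tested genes 51.7% were lower and the median was -0.0064. These counts moved with the scaling of the arrays. On values as deposited 14 and 18 genes were lower, beside 64.8% of all genes, and after quantile normalization only 8 and 12 were, with medians of -0.0068 and -0.025. Without 1% replicate 4 the complement median was -0.025 and the coagulation median -0.036, and without control replicate 5 it was -0.030 with 9 of 16 genes lower. Without control replicate 3 it was -0.14. Single genes moved too. Without 1% replicate 4, the differences given below were -0.10 for Masp2, -0.034 for C4bp, -0.038 for C8g, -0.058 for Plg and -0.066 for Serpinc1. Without control replicate 3 that of C9 was -0.34. F9 was -0.048 without control replicate 5, and F5 was -0.073 without 1% replicate 6. All 8 hepatocyte markers were lower at 1% as well, with a median of -0.076 and 0 called, and their part in the result was not tested.

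Masp1 encodes a serine protease that acts with mannose-binding lectin to start the lectin pathway, and lies at chr16:23451785-23521240 in GRCm38.p6. Its control level was 10.17 ± 0.24, from 9.92 through a median of 10.10 to 10.56. At 0.05% it was 9.92 ± 0.15, from 9.76 through 9.91 to 10.17. At 1% it was 9.69 ± 0.23, from 9.32 through 9.70 to 9.96. In this probe set the means stood in the order of the dose, and 5 of 6 mice on 1% lay below every control mouse. The difference of 1% from control was -0.48 ± 0.12 (0.718-fold, adjusted p = 0.315), with a 95% interval from -0.73 to -0.22. Against control at 0.05% it was -0.25 ± 0.12 (adjusted p = 0.948), and between the doses -0.23 ± 0.12 (adjusted p = 0.639). Masp1 had rank 36 by p among all tested genes at 1% against control. Its adjusted p ranged from 0.186 to 0.673 over all alternatives run, the lower end with the acute phase level as a covariate and the upper without control replicate 2. The other 4 probe sets of Masp1 differed by -0.27 to -0.093 at 1%, all in the same direction but smaller, and by -0.18 to 0.18 at 0.05%. With the probe sets of the gene averaged, the differences of Masp1 were -0.25 at 1% and -0.018 at 0.05%, so its step at 0.05% was not shared by all probe sets.

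Of the other recognition genes, C1s1, the subunit of C1 that cuts C4 and C2, was 11.49 ± 0.15 in controls, 11.41 ± 0.07 at 0.05% and 11.31 ± 0.09 at 1%. The difference at 1% was -0.18 ± 0.077 (adjusted p = 0.528), and all 6 mice on 1% lay below the control mean. Masp2, the lectin pathway protease that cuts C4 and C2, differed by -0.17 ± 0.082 (adjusted p = 0.588), with 1% replicate 4 at 9.70 and the rest of that diet at 10.04 or above. The mannose-binding lectins that Masp1 and Masp2 accompany had overlapping ranges of unequal width in the 3 diets. Mbl1 ran from 11.05 through 11.22 to 11.74 in controls, from 10.89 through 11.23 to 11.45 at 0.05% and from 11.20 through 11.30 to 11.46 at 1%. Mbl2 ran from 12.01 through 12.31 to 12.60, from 12.28 through 12.37 to 12.43 and from 12.08 through 12.27 to 12.52 in the same order. Their differences from control at 1% were -0.0044 ± 0.13 and -0.017 ± 0.095. C2, the proteolytic part of the classical and lectin C3 convertase, was 9.29 ± 0.41, 8.94 ± 0.52 and 9.12 ± 0.28, with an SD above the gap between the means of control and 0.05% in those 2 diets. All 6 genes of the group were lower at 1% than in controls, with a median of -0.17.

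Cfb, the proteolytic part of the alternative pathway convertase, ran from 11.40 through 11.80 to 11.92 in controls. At 0.05% it ran from 11.29 through 11.63 to 12.18, and at 1% from 11.53 through 11.84 to 12.11. The 3 ranges lay on top of each other, and the 1% difference was 0.092 ± 0.15.

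**Figure D3:**
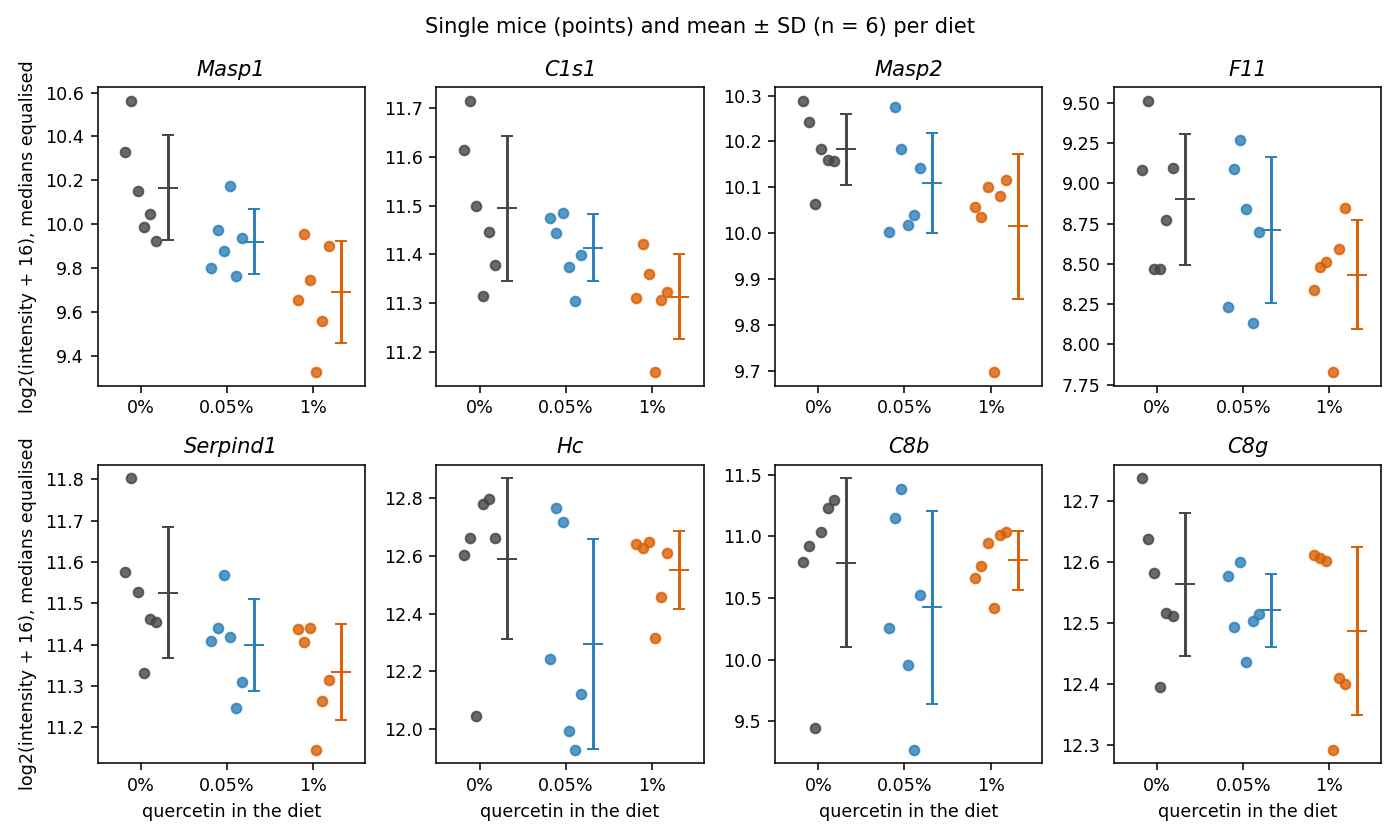
Levels of 8 genes in single mice (points) with mean ± SD per diet, n = 6, as log2(intensity + 16) after equalising array medians. Masp1 means step down from 10.17 to 9.92 to 9.69 with dose, while C8b spreads from 9.27 to 11.38 within the 0.05% diet and C8g stays between 12.29 and 12.74.

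No terminal gene passed the test in any comparison, and the terminal genes had the widest spread within diets of the groups. Of their differences from control, that of Hc at 0.05% exceeded its SD within diets. Hc, which encodes C5, ran from 12.05 through 12.66 to 12.80 in controls, from 11.93 through 12.18 to 12.77 at 0.05% and from 12.32 through 12.62 to 12.65 at 1%. C6, which joins C5b first, ran from 9.42 through 11.03 to 11.26, from 9.71 through 10.61 to 11.20 and from 10.51 through 10.69 to 10.96 in the same order. C9, which forms the ring of the pore, ran from 12.31 through 13.16 to 13.30, from 12.29 through 12.68 to 13.27 and from 12.65 through 12.94 to 12.99. In each of the 3 genes the lowest control mouse, replicate 3, sat far below the other 5, and the 1% diet was the narrowest. All 6 terminal genes were lower at 0.05% than in controls, with a median of -0.26 and differences from -0.36 to -0.043. Hc differed by -0.30 ± 0.15, C9 by -0.32 ± 0.18 and C8b by -0.36 ± 0.32, each with an adjusted p of 0.948. At 1% against control 4 of 6 were lower with a median of -0.040, among them C9 at -0.19 ± 0.18 (adjusted p = 0.813) and C8g at -0.077 ± 0.078 (adjusted p = 0.821).

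The complement regulators were lower than control by 0.15 or less on both diets. C4bp, a cofactor for the breakdown of C4b, was 12.42 ± 0.12, 12.26 ± 0.16 and 12.32 ± 0.17 in control, 0.05% and 1%. Its difference from control was -0.15 ± 0.096 at 0.05% (adjusted p = 0.948) and -0.099 ± 0.096 at 1% (adjusted p = 0.810). Serping1, the C1 inhibitor, differed by -0.13 ± 0.11 at 0.05% (adjusted p = 0.948) and -0.058 ± 0.11 at 1%. For Cfi, the protease that inactivates C3b and C4b, the values were -0.094 ± 0.087 and -0.062 ± 0.087.

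In the probe sets used, all 7 clotting factors were lower than control on both quercetin diets, and none passed the test. Their medians were -0.11 at 0.05% and -0.097 at 1%. At 0.05% another probe set of F5 was 0.12 higher than control, and 2 others of F10 ran from -0.029 to 0.032. F11, whose protein activates factor IX, ran from 8.47 through 8.93 to 9.51 in controls, from 8.13 through 8.77 to 9.27 at 0.05% and from 7.83 through 8.50 to 8.85 at 1%. The 1% difference of F11 was -0.47 ± 0.22 (0.724-fold, adjusted p = 0.568), with 2 of 6 mice on 1% below every control mouse. F7, the protease that tissue factor switches on, ran from 9.61 through 10.04 to 10.17, from 9.62 through 9.73 to 9.86 and from 9.58 through 9.76 to 10.23. At 0.05% all 6 mice were below the control mean of F7, and the difference was -0.22 ± 0.12 (adjusted p = 0.948). Prothrombin, from F2, varied least in controls, from 13.01 through 13.05 to 13.08. It ran from 12.82 through 12.99 to 13.11 at 0.05% and from 12.84 through 12.98 to 13.09 at 1%, so the quercetin groups were wider and reached lower. F9 differed by -0.15 ± 0.089 at 0.05% (adjusted p = 0.948) and -0.097 ± 0.089 at 1% (adjusted p = 0.795), and F5, the cofactor of factor Xa, by -0.11 ± 0.086 at 1% (adjusted p = 0.763). F12 differed by -0.11 ± 0.071 at 0.05% (adjusted p = 0.948). F10 was within 0.063 of control on both diets in the probe set used, while its 2 others differed by -0.17 to -0.11 at 1%.

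The contact genes Klkb1, for plasma prekallikrein, and Kng1, for kininogen, had differences of both signs. Kng1 was 13.004 ± 0.12, 12.899 ± 0.15 and 13.041 ± 0.05 in control, 0.05% and 1%. It differed by -0.11 ± 0.080 at 0.05% against control (adjusted p = 0.948) and by 0.14 ± 0.080 between the doses (adjusted p = 0.658).

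Among inhibitors, heparin cofactor II, from Serpind1, ran from 11.33 through 11.50 to 11.80 in controls, from 11.25 through 11.41 to 11.57 at 0.05% and from 11.15 through 11.36 to 11.44 at 1%. The differences from control were -0.13 ± 0.086 (adjusted p = 0.948) and -0.19 ± 0.086 (adjusted p = 0.557), and all 6 mice on 1% were below the control mean. Antithrombin, from Serpinc1, ran from 13.25 through 13.31 to 13.32 in controls, from 13.06 through 13.22 to 13.36 at 0.05% and from 13.02 through 13.22 to 13.28 at 1%. That gave -0.10 ± 0.071 at 1% (adjusted p = 0.727), with 4 of 6 mice on 1% below every control mouse. Proc, for protein C, ran from 11.61 through 11.76 to 11.87, from 11.67 through 11.70 to 11.87 and from 11.60 through 11.82 to 12.02. The ranges overlapped, while 3 of 6 mice on 1% lay above every control mouse and every 0.05% mouse. The protein C cofactor Pros1, and Proz, for a protein that helps to inhibit factor Xa, differed from control by -0.20 ± 0.15 and -0.13 ± 0.11 at 0.05%, and by 0.016 ± 0.15 and -0.040 ± 0.11 at 1%.

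In fibrinolysis, Plg, for plasminogen, ran from 13.24 through 13.34 to 13.40 in controls, from 13.04 through 13.19 to 13.51 at 0.05% and from 13.02 through 13.25 to 13.35 at 1%. The 1% difference of Plg was -0.10 ± 0.089 (adjusted p = 0.789). Serpinf2, for the plasmin inhibitor alpha-2-antiplasmin, differed by -0.14 ± 0.10 at 0.05% (adjusted p = 0.948) and -0.040 ± 0.10 at 1%.

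At 0.05% quercetin nearly every member was lower than in controls, and none passed the test. The difference exceeded the gene's SD within diets in 3 complement genes (Masp1, Hc and C4bp) and 4 coagulation genes (F7, F9, F12 and Serpinc1), and was within it in the other members. The counts were 15 of 16 complement genes, with a median of -0.15, and 19 of 20 coagulation genes, with a median of -0.099. Among all genes 53.9% were lower and the median was -0.012. Mbl2 (0.086 ± 0.095) and Klkb1 (0.066 ± 0.12) were the exceptions. After quantile normalization the counts were 13 and 14, with medians of -0.11 and -0.023. Without 0.05% replicate 5 the medians were -0.087 and -0.067, and without 0.05% replicate 4 the complement median was -0.10. Of single genes, C2 (-0.35 ± 0.22, adjusted p = 0.948) was -0.21 and Serpinf2 -0.065 without 0.05% replicate 5. Without control replicate 5, F9 was -0.097, F12 -0.073 and Kng1 -0.070, and without control replicate 2 Serpind1 was -0.072. Serping1 was -0.20 without 0.05% replicate 2 and -0.075 without control replicate 4. The acute phase list, 20 genes of which none is a member, had a median of -0.30 in the same comparison, with 18 of 20 lower and 0 called. All 4 tested neutrophil markers were lower as well. The deposited intensities of 6 neutrophil markers, tested or not, summed to 136 to 217 at 0.05% against 127 to 1244 in controls. All 8 endothelial markers were higher, with a median of 0.23, and 7 of 8 hepatocyte markers were lower, with a median of -0.071. With the acute phase level as a covariate, added after seeing the data, 14 of 16 complement and 19 of 20 coagulation genes were lower, with medians of -0.066 and -0.068. The part of the cell type markers in the result was not tested.

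Between the doses 5 of 6 terminal complement genes were higher at 1%, with a median of 0.21, and 4 of 6 recognition genes and proteases were lower, with a median of -0.098. In 1% against 0.05%, which shares its mice with both other comparisons, 5 of 16 complement and 7 of 20 coagulation genes were lower, with medians of 0.099 and 0.044, where 49.8% of all genes were lower with a median of 0.00067. On values as deposited the coagulation median was -0.0044. With the acute phase level as a covariate 12 of 16 complement and 10 of 20 coagulation genes were lower, with medians of -0.014 and -0.00062. Without 0.05% replicate 5 the medians were 0.029 and 0.016, and without 0.05% replicate 4 they were 0.037 and 0.015. Hc differed by 0.26 ± 0.15 (adjusted p = 0.680), C8a by 0.24 ± 0.20 (adjusted p = 0.774) and C8b by 0.38 ± 0.32 (adjusted p = 0.785). The recognition proteases had the other sign in the probe sets used, with C1s1 at -0.10 ± 0.077 (adjusted p = 0.765) and Masp2 at -0.095 ± 0.082 (adjusted p = 0.793). Another probe set of Masp2 differed by 0.017, and 4 others of Masp1 by -0.35 to 0.091, so the sign was not shared by all probe sets. In coagulation Pros1 differed by 0.22 ± 0.15 (adjusted p = 0.737), F11 by -0.28 ± 0.22 (adjusted p = 0.767) and Fgb by 0.13 ± 0.11 (adjusted p = 0.781). Proc differed by 0.094 ± 0.080 (adjusted p = 0.788) and Klkb1 by -0.13 ± 0.12 (adjusted p = 0.815). Without 1% replicate 4, F11 was -0.16 and Masp2 -0.032. Without 0.05% replicate 5, C8a was 0.14 and C8b 0.15, and without 0.05% replicate 3 C8b was 0.57. Fgb was 0.21 without 0.05% replicate 2, Klkb1 -0.062 without 1% replicate 5 and Proc 0.056 without 1% replicate 1.

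The range among mice of 1 diet exceeded the gaps between the diet means for both lists. The level of complement in a mouse, as the mean deviation of its 16 genes from their means over all mice, was 0.085 ± 0.21 in controls, -0.081 ± 0.27 at 0.05% and -0.0036 ± 0.12 at 1%. Controls ran from -0.32 in replicate 3 to 0.28 in replicate 5, the 0.05% mice from -0.41 in replicate 5 to 0.24 in replicate 3, and the 1% mice from -0.23 in replicate 4 to 0.12 in replicate 6. The 20 coagulation genes spread less, at 0.054 ± 0.057, -0.041 ± 0.14 and -0.013 ± 0.098. Within diets the median SD of a gene was 0.35 for the terminal genes, 0.22 for all 16 complement genes and 0.14 for the 20 coagulation genes. It was 0.23 over all tested genes and 0.17 over the 2934 at least as bright as the dimmest member. C8b covered the widest range, 4.31-fold between 0.05% replicates 5 and 3, followed by C6 at 3.59-fold and F11 at 3.22-fold. F2 had the narrowest range, 1.22-fold.

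In 13 of the 36 members the level of a mouse rose with its acute phase genes, a relation examined after these levels were seen. The list holds serum amyloid A, orosomucoid, haptoglobin and other secreted proteins, and also Cd14 and Mt2, whose products are not only secreted. Mt2 had an SD of 3.37 in controls, 3.03 at 0.05% and 2.27 at 1%, and its weight in the list mean was not tested. The mean of the list per mouse was 0.10 ± 0.97 in controls, -0.33 ± 1.16 at 0.05% and 0.23 ± 0.73 at 1%. With diet kept in the model, 9 of 16 complement genes had a positive slope on that mean at an adjusted p under 0.05, and 4 of 20 coagulation genes did. Among all 12865 genes outside the list 5.87% had a positive and 6.84% a negative called slope. The steepest among members were C8b at 0.46 ± 0.10 log2 per log2 (adjusted p = 0.00696), C6 at 0.41 ± 0.091 (adjusted p = 0.00619) and C2 at 0.34 ± 0.065 (adjusted p = 0.00213). C8a, C9, Cfb, Hc, Mbl1 and Serping1 followed with slopes from 0.27 to 0.17. In coagulation Pros1 had 0.26 ± 0.036 (adjusted p = 0.000175), Fga 0.21 ± 0.036 (adjusted p = 0.00101), Fgb 0.15 ± 0.035 (adjusted p = 0.00982) and Serpinf2 0.15 ± 0.033 (adjusted p = 0.00679). Klkb1 was the 1 member with a called negative slope, -0.18 ± 0.039 (adjusted p = 0.00675). Masp1 (-0.044 ± 0.056), C1s1 (-0.017 ± 0.035), Mbl2 (0.014 ± 0.044), C8g (-0.037 ± 0.035) and Serpind1 (-0.0072 ± 0.040) had slopes smaller than their errors or close to them.

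The mice fell on both sides of a gap in the acute phase mean, with 12 below 0.25 and 6, 2 of each diet, above 0.96. Within the 12 mice below the gap 0 members and 0 genes were called, while the median slope was 0.21 for complement and 0.079 for coagulation, beside 0.19 and 0.055 over all 18 mice. The relation was thus not detectable within that side, and no fit was run on the 6 mice of the other. Without the 2 mice farthest from the median, 6 complement and 2 coagulation genes had a called positive slope and 1 coagulation gene a negative one. On values as deposited these counts were 4, 1 and 1, and after quantile normalization 10, 4 and 1. Of the 2 mice that stood apart, control replicate 3 had the lowest acute phase mean of its diet (-0.93), and 1% replicate 4 did not (-0.36).

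**Figure D4:**
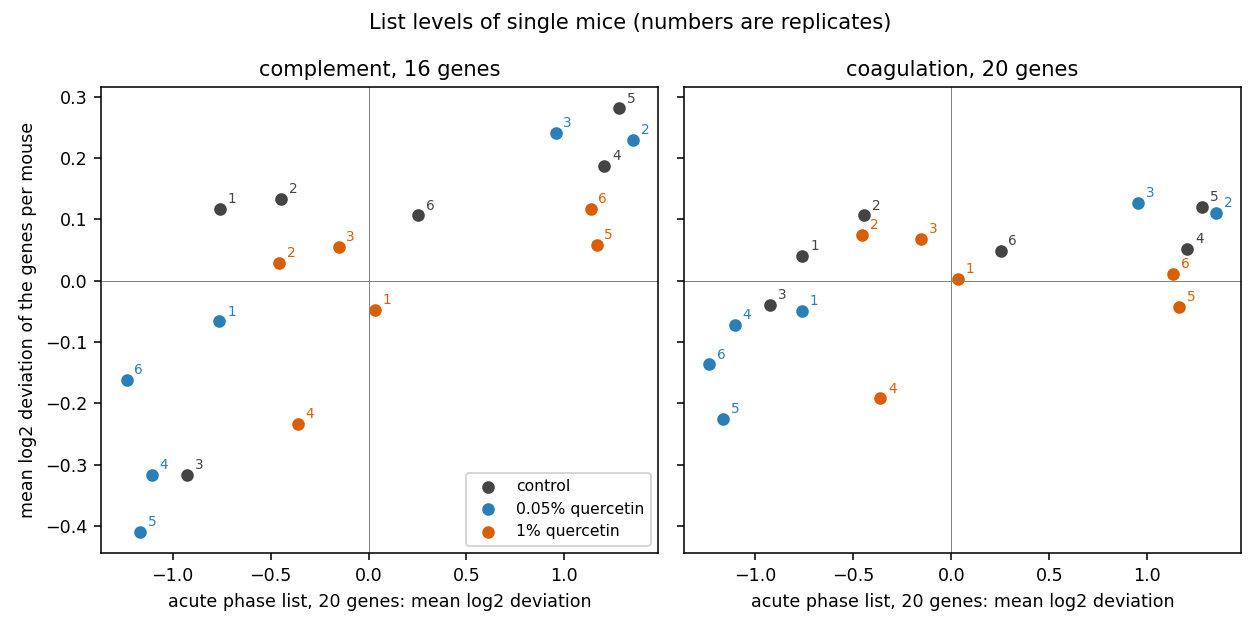
Mean log2 deviation of the complement genes (left) and coagulation genes (right) per mouse against that of the acute phase list, coloured by diet and numbered by replicate. The 6 mice above the gap have complement levels from 0.059 to 0.28, and mice below it reach 0.13 (control replicate 2). In complement, control replicate 3 and 0.05% replicates 4 and 5 lie lowest, at -0.32 and below. In coagulation, 0.05% replicate 5 (-0.23) and 1% replicate 4 (-0.19) lie lowest.

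Genes for chains of 1 protein did not all vary together. Component 8 has 3 chains, C8a and C8b beside each other at chr4:104815679-104876487 and chr4:104766317-104804548, and C8g at chr2:25498650-25501777 (GRCm38.p6). Over the 18 mice C8a and C8b had a Pearson r of 0.93 (permutation p = 1e-05, the smallest that 100000 permutations can give, adjusted p = 2e-05 over 6 pairs) and a Spearman rho of 0.89 (permutation p = 1e-05, adjusted p = 3e-05). Without the 2 mice farthest from the C8a median r was 0.86, and with diet means removed it was 0.93. C8g had an r of 0.13 to C8a (permutation p = 0.6, rho = 0.11) and 0.034 to C8b (permutation p = 0.89, rho = -0.046) over all mice. Within control, 0.05% and 1% the r of C8a and C8g was -0.22, 0.56 and 0.85, and that of C8b and C8g was -0.26, 0.45 and 0.20, from 6 mice each. On values as deposited and after quantile normalization the C8a and C8b r was 0.94 and 0.93, and the pairs with C8g lay between -0.33 and -0.015. C2, C6, C8a, C8b, C9 and Hc, a set picked after the values were seen, had 15 pairwise r values from 0.85 to 0.96. The median r was 0.58 over 120 pairs within complement, 0.42 over 190 within coagulation and 0.49 over 320 between them, all from the same 18 arrays.

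Fibrinogen has 3 chains from neighbouring genes, Fgg at chr3:83007724-83015056, Fga at chr3:83026153-83033627 and Fgb at chr3:83042246-83049863 (GRCm38.p6). Fga ran from 13.04 through 13.20 to 13.50 in controls, from 12.86 through 13.13 to 13.72 at 0.05% and from 13.06 through 13.39 to 13.47 at 1%. Fgb ran from 13.47 through 13.65 to 13.82, from 13.33 through 13.46 to 13.94 and from 13.42 through 13.71 to 13.84 in the same order. Fgg ran from 13.22 through 13.30 to 13.41, from 13.09 through 13.22 to 13.53 and from 13.12 through 13.29 to 13.51. No chain separated the diets, with differences from control of 0.10 ± 0.13, 0.041 ± 0.11 and -0.0084 ± 0.088 at 1%. F13b, the carrier subunit of the factor that cross-links fibrin, differed by -0.098 ± 0.098.

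Fga and Fgb followed each other over the mice with r = 0.95 (permutation p = 1e-05, adjusted p = 2e-05) and rho = 0.94 (permutation p = 1e-05, adjusted p = 3e-05). Without the 2 mice farthest out r was 0.92, and within the diets it was 0.93, 0.98 and 0.93. The r values of Fgg were lower, at 0.75 to Fga (permutation p = 0.00051, adjusted p = 0.00076) and 0.85 to Fgb (permutation p = 1e-05, adjusted p = 2e-05). The rho values were 0.69 (adjusted p = 0.0030) and 0.81 (adjusted p = 0.00038). The r of Fga and Fgg depended on the scaling and the mice, with r = 0.37 on values as deposited, 0.38 after quantile normalization, 0.18 within controls and 0.61 without the 2 mice farthest out. That of Fgb and Fgg also did, with r = 0.63 on values as deposited, 0.57 after quantile normalization, 0.42 within controls and 0.79 without the 2 mice farthest out. For Fga and Fgb the scalings gave 0.88 and 0.86.

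**Figure D5:**
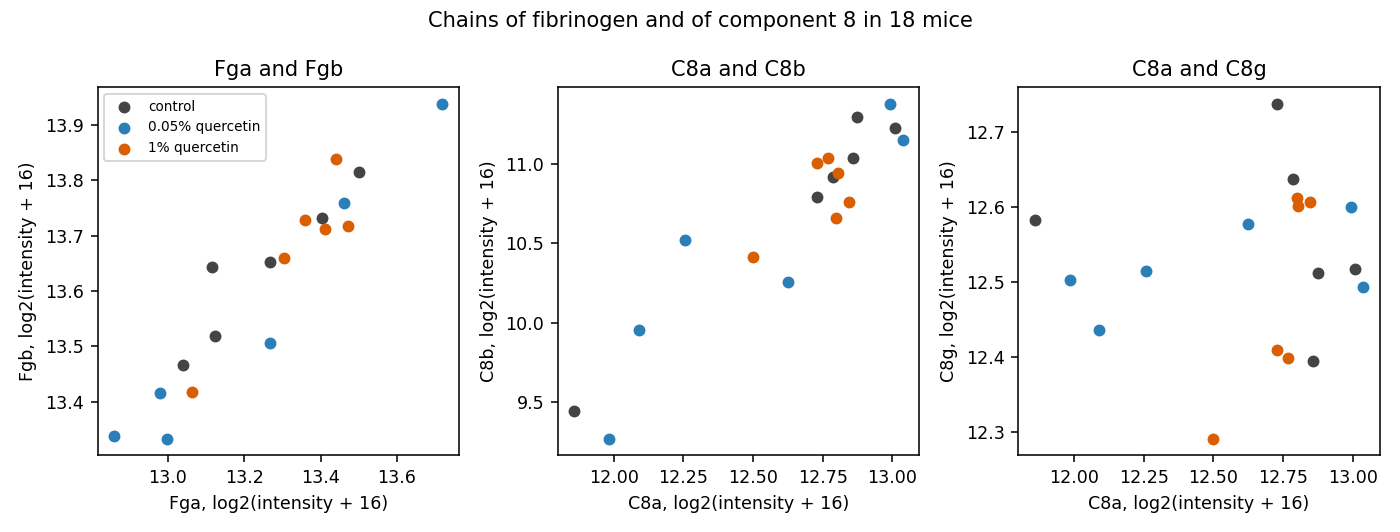
Levels of Fga against Fgb, C8a against C8b and C8a against C8g in 18 mice, as log2(intensity + 16), coloured by diet. The first 2 pairs lie along a line (r = 0.95 and 0.93) and the third does not (r = 0.13).

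Because the fibrinogen chains varied together to different degrees, the 250 bases before the start of each gene are shown, from RefSeq on GRCm38.p6, in the direction of the gene. They lie at chr3:83025903-83026152 on the plus strand for Fga, chr3:83049864-83050113 on the minus strand for Fgb and chr3:83007474-83007723 on the plus strand for Fgg. Capitals mark matches on either strand to the motifs of 4 kinds of factor: GTTAAT (bound by HNF1), TTGCNNAA (C/EBP), TTCNNNGAA (STAT) and CTGGGA (the type 2 interleukin-6 response element). No marked match overlaps another.
Fga: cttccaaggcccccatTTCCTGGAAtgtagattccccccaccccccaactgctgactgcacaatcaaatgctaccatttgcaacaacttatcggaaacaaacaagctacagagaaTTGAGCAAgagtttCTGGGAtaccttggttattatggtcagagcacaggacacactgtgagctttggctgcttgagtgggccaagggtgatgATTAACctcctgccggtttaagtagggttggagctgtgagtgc
Fgb: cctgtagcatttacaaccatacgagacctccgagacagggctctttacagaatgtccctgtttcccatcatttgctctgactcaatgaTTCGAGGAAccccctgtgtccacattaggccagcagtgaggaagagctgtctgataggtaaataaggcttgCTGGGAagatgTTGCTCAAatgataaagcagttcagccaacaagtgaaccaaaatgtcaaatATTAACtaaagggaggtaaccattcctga
Fgg: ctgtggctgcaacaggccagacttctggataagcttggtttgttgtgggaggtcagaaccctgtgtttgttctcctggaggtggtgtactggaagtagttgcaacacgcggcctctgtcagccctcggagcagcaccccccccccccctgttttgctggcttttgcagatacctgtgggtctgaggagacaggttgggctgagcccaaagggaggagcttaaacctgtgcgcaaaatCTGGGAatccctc
Fga and Fgb hold all 4 motifs and Fgg only CTGGGA. Over all 32851 promoters of the table, in windows of the same length, the shares with a match were 6.43%, 9.56%, 7.02% and 27.0% in the order above. A promoter was found for 28 of the 36 members, and 8, 7, 6 and 13 of these held the motif. A match is a run of letters and shows no binding. Whether the motifs relate to how the chains varied together was not tested.

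The wider systems held no called gene either. Of 20 tested other complement genes 0 passed in any comparison. Those with the smallest p were Colec10, a collectin, at -0.40 ± 0.16 for 1% against 0.05% (adjusted p = 0.528) and -0.34 ± 0.16 for 1% against control (adjusted p = 0.568), and Cd55, a membrane regulator of complement, at 0.29 ± 0.14 at 1% and 0.30 ± 0.14 at 0.05% (adjusted p = 0.574 and 0.948). Of 26 tested other coagulation genes 0 passed. Lman1, a cargo receptor that carries factors V and VIII out of the endoplasmic reticulum, was 11.20 ± 0.13 in controls and 10.95 ± 0.088 at 1%, a difference of -0.25 ± 0.074 (adjusted p = 0.388). F2r, a thrombin receptor, differed by -0.34 ± 0.15 at 1% (adjusted p = 0.541) and -0.41 ± 0.15 at 0.05% (adjusted p = 0.887). Vwf, also on the endothelial list, and F8 went the other way at 0.05%. They differed from control by 0.31 ± 0.11 (adjusted p = 0.887) and 0.17 ± 0.092 (adjusted p = 0.948). Of the 26 other coagulation genes 16 were lower at 0.05% than in controls. Fgl1, a fibrinogen-like protein, was 12.53 ± 0.23 at 1% and 11.59 ± 0.95 at 0.05%, and differed by 0.94 ± 0.38 between the doses (adjusted p = 0.530). Of 23 tested regulators 0 passed. Onecut1, a hepatocyte transcription factor, was 7.45 ± 1.33 in controls, 5.78 ± 0.66 at 0.05% and 7.96 ± 0.64 at 1% (adjusted p = 0.701 for 0.05% against control and 0.297 between the doses). Ppara, a fatty acid receptor of hepatocytes, was 0.78 ± 0.17 higher at 0.05% than in controls (adjusted p = 0.431), and Cebpd, an acute phase factor, differed by -0.70 ± 0.25 (adjusted p = 0.887).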

How the data were processed

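Liver RNA of each mouse was labelled with a 3' amplification kit and hybridised to an Affymetrix mouse array, per the labels' protocols. The deposited values are linear intensity values, 1 per probe set and array, while the software and scaling behind the authors' signal were not given in the sources used here. Array medians lay between 14.2 and 22.0. Of 45101 probe sets 34945 carried 1 gene symbol of the platform annotation. Here 16 was added, log2 taken, and a gene kept where its mean passed the 40th percentile (4.69). limma 3.58.1 in R 4.3.3 was fitted to 3 group means over 18 arrays with 15 residual degrees of freedom. The median standard error was 0.13, and the number of arrays limits the precision. Genes were named in full by a rule: the 6 complement and 6 coagulation members with the smallest p per comparison, plus preset members, and up to 3 genes per related list. The members and lists were chosen with earlier results of these data known. Permutation tests used scipy 1.17.1. Scripts were tested on simulated data. The alternatives were other array scalings, filters, added constants, variance models, probe set rules, sample sets, thresholds, a replicate block and leaving out each array. An acute phase covariate and leaving out both arrays that stood apart were added after seeing the data.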

Additional observations from a re-analysis of the deposited data

Results flagged for a closer look

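Of 108 groups of 6 mice (36 genes in 3 diets), 13 held a mouse whose gap to the nearest other was wider, as a share of the group's range, than Dixon's 95% critical value. Chance flags about 1 in 20 groups, and the genes are correlated, so these groups are not independent.

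Control replicate 3 passed it as the low mouse in 5 terminal complement genes of the control diet, with C6 at 9.42 (the next at 10.64), C8a at 11.86 (next 12.73), C8b at 9.45 (next 10.79), C9 at 12.31 (next 13.13) and Hc at 12.05 (next 12.60). Its C8g level was not set apart in this way.

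1% replicate 4 had the lowest value of its diet in 26 of 36 members, and passed that critical value in 7. In complement these were Masp2 at 9.70 (next 10.04), C8a at 12.50 (next 12.73), Cfi at 12.60 (next 12.82), C4bp at 11.99 (next 12.31) and Serping1 at 12.65 (next 12.84). In coagulation they were Kng1 at 12.95 (next 13.04) and Serpinc1 at 13.02 (next 13.19).

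F12 in control replicate 5, at 11.37 against 11.19 for the next mouse, was the 1 high value among the 13.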

How the results depend on the processing

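Members called stayed at 0 in all 3 comparisons under each alternative run. Single-gene differences were followed only for the complement and coagulation members with the smallest p per comparison. None of those changed its call or its sign. The sign of other members' differences was not followed. For genes of the related lists, such as Onecut1 and Ppara, neither call nor sign was followed, so a change there was not excluded. Between the doses 3 medians, none of them tested, changed sign: coagulation was -0.0044 on values as deposited, and with the acute phase covariate complement was -0.014 and coagulation -0.00062. In 1% against control the 1 gene called, no member, became 0 on values as deposited, with no filter, with probe sets averaged per gene and with only the 12 arrays compared. It became 4 at an adjusted p under 0.10, 12 with the acute phase covariate (added after seeing the data), and 0 to 3 when each array was left out in turn. In 0.05% against control 0 genes became 0 to 1 on leaving out arrays. In 1% against 0.05% 0 became 10 with only the 12 arrays, 2 at an adjusted p under 0.10, 2 without both arrays that stood apart (added after seeing the data) and 0 to 1 on leaving out arrays. The cause was not tested. Leaving out each array, the complement median lay between -0.14 and -0.025 for 1% against control, -0.20 and -0.087 for 0.05% against control and 0.029 and 0.17 between the doses.

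Replicate numbers did not pair the mice. Of 18 pairs with the same number, 3 had a correlation over 0.1, and 3 of 18 arrays correlated best with an array of their own number. With the replicate block 1 gene was called in 1% against control, 0 members were called, and Masp1 had an adjusted p of 0.388.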
